A study of Homo sapiens with 30 samples.

Results

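The 6 libraries described here came from V16D cells in full serum, 3 treated with enzalutamide and 3 with vehicle, out of 30 samples in the series. They were taken by their cell line and treatment labels. V16D is a castration-resistant prostate cancer line of LNCaP origin and the parent of the enzalutamide-resistant line MR49F. Cells were plated at 300000 per well without drug in RPMI-1640 with 10% fetal bovine serum and then received 10 μM enzalutamide (labelled MDV3100) or 0.1% DMSO vehicle for 24 h. MR49F cells treated in the same way (3 vehicle, 3 enzalutamide) were used to test where the response of V16D differed. MR49F cells in charcoal-stripped serum, with vehicle or 1 nM dihydrotestosterone (DHT) for 24 h, 3 samples each, were set beside it. The comparison asks how blocking androgen signalling in an androgen-replete medium changes the transcriptome of the drug-sensitive parent, pathway by pathway.

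Androgens are steroid hormones that drive genes of prostate secretion, lipid metabolism and growth through response elements in DNA. Enzalutamide is an antiandrogen that competes with them and blocks this signal. Kallikrein proteases such as KLK3 (prostate-specific antigen) are textbook targets, and a smaller group of genes is held down by androgens and rises when the signal is blocked.

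Each V16D library held 15408804 to 18856938 reads on genes, 72.97% to 75.042% of the reads that were assigned either to a gene or to none or several. The common dispersion corresponded to a coefficient of variation between replicates of 1.83%, so changes of a few percent could pass the test in abundant genes. The labels place the replicates in wells plated in triplicate and the methods combine wells in pairs. If the wells came from a single culture, p-values measure only technical spread. All 10 luminal prostate markers checked were present, with summed levels of 1706 to 1737 FPKM in vehicle and 1196 to 1223 FPKM in enzalutamide samples. Basal, neuroendocrine and endothelial markers were each under 1 FPKM in every sample. The same held for 3 of 4 fibroblast and 3 of 4 leukocyte markers, whose summed levels stayed within 1.03 to 1.57 and 2.18 to 2.48 FPKM.

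Enzalutamide changed 5276 of 14079 tested genes in V16D cells (edgeR quasi-likelihood test, Benjamini-Hochberg adjusted p of at most 0.05). Of all tested genes, 2565 (18.2%) rose and 2711 (19.3%) fell. Limma on log2(FPKM + 1), which differs in test, scaling and filter, called 2218 increased and 1581 decreased, so that increases made up 58.4% of its calls against 48.6% with edgeR. Most of these changes were small: the median absolute log2 fold change of the called genes was 0.24, and 2911 of them changed by less than 1.2-fold. At least 1.5-fold, 466 genes (3.31%) rose and 483 (3.43%) fell. The median log2 fold change of all tested genes was 0.00, with quartiles of -0.11 and 0.13, so a list of genes is read below against these shares and this middle. The 46 gene lists used hold 1492 genes, of which 1299 had enough reads to be tested. The lists were written with earlier results of these data known, and some share members. Their shares are therefore a description and not an independent test.

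**Figure D1:**
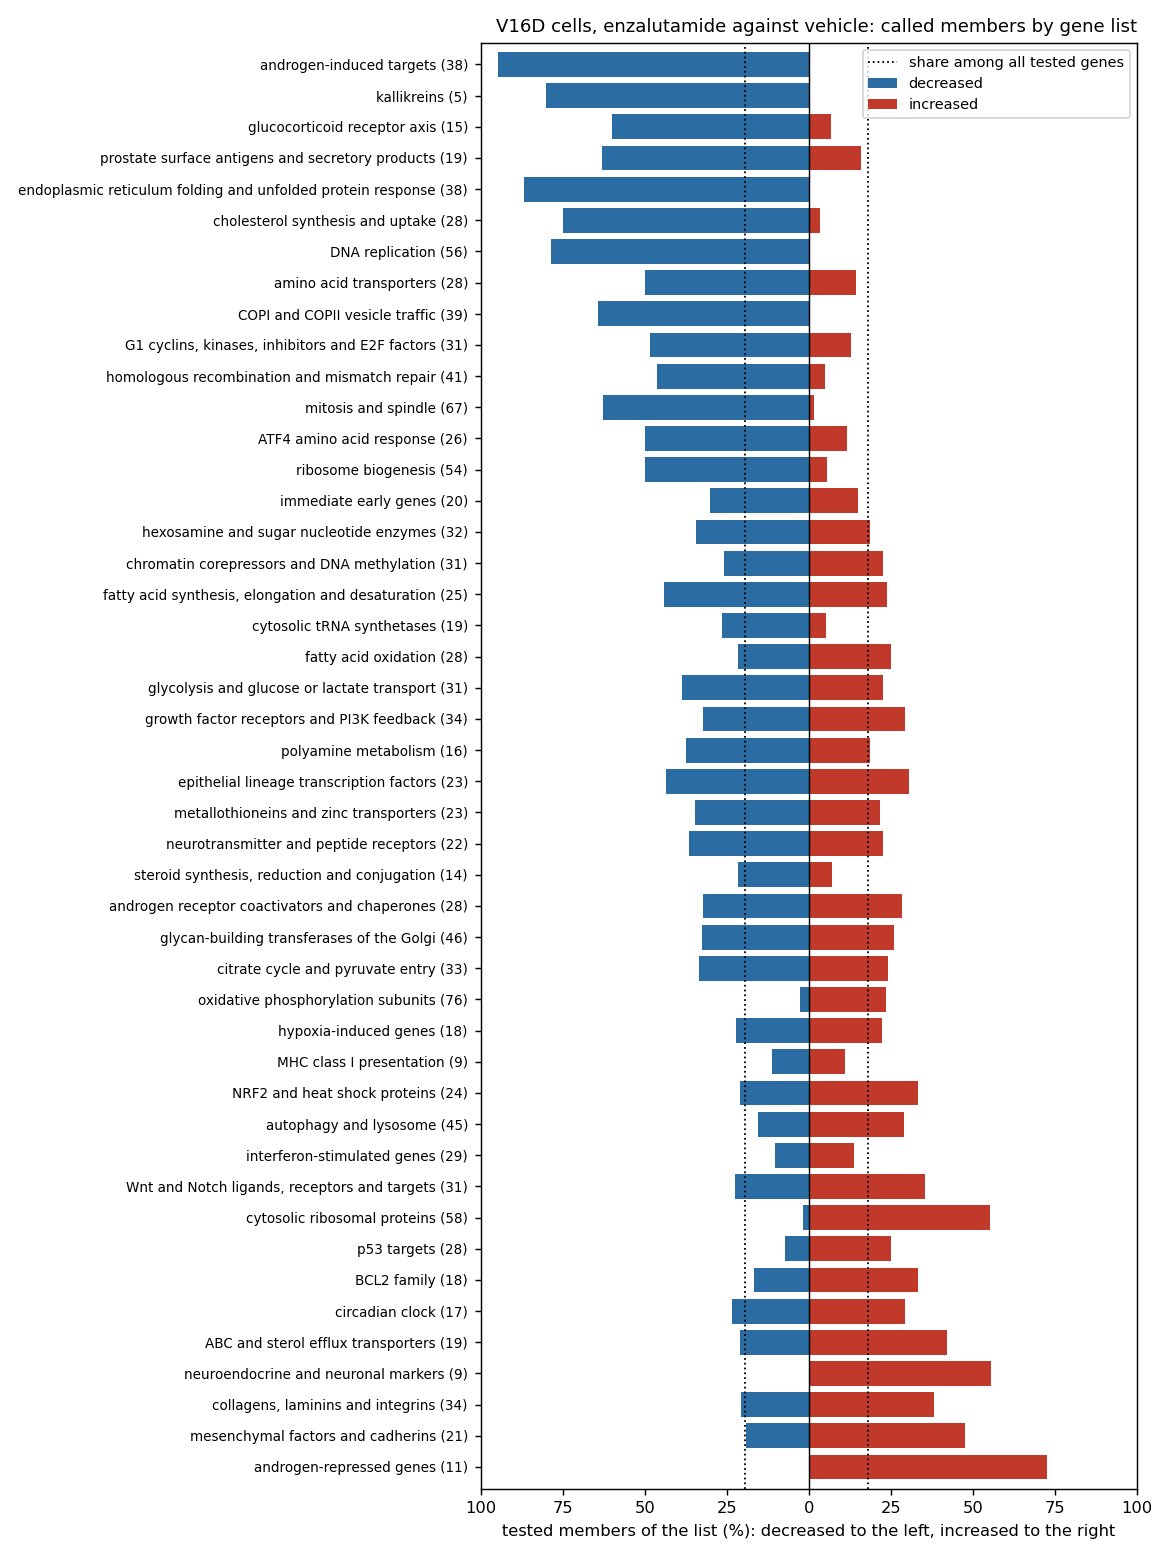
Share of the tested members of each of 46 gene lists that fell (blue, to the left) or rose (red, to the right) with enzalutamide in V16D cells, in percent, ordered by median log2 fold change, with the number of tested members in brackets. Dotted lines mark the share among all tested genes, 19.3% decreased and 18.2% increased. The lists with the largest shares of fallen members are androgen-induced targets, endoplasmic reticulum folding, kallikreins and DNA replication.

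Androgen targets fell most. Of 38 tested androgen-induced genes 36 fell (94.7%, against 19.3% of all tested genes), 34 of them at least 1.5-fold, with a median log2 fold change of -1.73. The other two, chosen for mention after their values were seen, were MED28 at 0.07 and TSC22D3 at 0.13. KLK3 stood at 937, 944 and 940 CPM (counts scaled to library size) in the vehicle samples and at 255, 257 and 251 CPM with enzalutamide. KLK2, a kallikrein next to it on the chromosome, went from 142, 138 and 144 CPM to 20.4, 21.6 and 20.1 CPM. In both genes every treated sample lay far below every vehicle sample. The log2 fold changes were -1.89 (SE 0.0245, n = 3 per group) for KLK3 and -2.77 (SE 0.0454) for KLK2, both with adjusted p at or under 1e-300 in edgeR. KLK4 (-0.97) and KLK15 (-0.91) also fell, and KLK14 at 0.70 did not pass the test, which accounts for the 5 tested kallikreins. KLK2 and KLK3 are close copies, and reads that fit both could have been split or dropped in counting.

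KLK3 lies at chr19:51358171-51364020 and KLK2 at chr19:51364824-51383823 on GRCh37, both on the plus strand and listed there as protein-coding. Their promoter windows are shown because they are the targets with the clearest fall here. Each window runs from 250 bases before to 50 bases after the RefSeq start on GRCh38.p14, KLK3 at chr19:50854665-50854964 and KLK2 at chr19:50873189-50873488, plus strand. Capitals mark the core androgen response hexamer AGAACA, searched on both strands:
KLK3: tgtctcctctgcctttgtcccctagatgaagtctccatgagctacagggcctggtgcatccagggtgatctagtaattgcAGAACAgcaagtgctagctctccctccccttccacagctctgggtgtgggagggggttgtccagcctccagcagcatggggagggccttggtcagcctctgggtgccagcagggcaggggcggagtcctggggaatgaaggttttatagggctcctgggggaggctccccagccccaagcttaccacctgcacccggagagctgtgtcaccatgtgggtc
KLK2: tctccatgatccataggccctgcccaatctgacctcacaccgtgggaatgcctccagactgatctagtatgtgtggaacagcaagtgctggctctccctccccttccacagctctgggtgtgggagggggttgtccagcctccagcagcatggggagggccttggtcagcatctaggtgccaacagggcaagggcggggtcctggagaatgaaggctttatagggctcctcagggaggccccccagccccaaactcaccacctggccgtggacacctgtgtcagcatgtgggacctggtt
The KLK3 window holds the hexamer with its first base 170 bases before the start, and the KLK2 window holds no exact match to these letters. Where KLK3 reads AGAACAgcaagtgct, KLK2 reads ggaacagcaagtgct, which differs from it in a single letter. The search counted exact matches only. The hexamer was present in 3 of 26 promoters of the androgen-induced genes (11.5%) and in 891 of 9982 promoters of tested genes that have an entry (8.93%).

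Other targets spanned a wide range of levels. SLC45A3, a prostate transporter-like membrane protein, went from 387, 396 and 385 CPM to 49.9, 53.5 and 53 CPM (log2 fold change -2.90, SE 0.0324). TRPM8, the cold-sensing cation channel, dropped from 69.6, 67.6 and 68.1 CPM to 4.93, 4.31 and 5.2 CPM. CHRNA2, a nicotinic acetylcholine receptor subunit, went from 14, 14.6 and 14.8 CPM to 0.157, 0.122 and 0.124 CPM. This gene was close to lost: 688 reads over the vehicle samples faced 7 over the treated ones, a ratio of 104 with an exact 95% counting interval of 50.0 to 259. TMPRSS2 (a cell-surface serine protease) and FKBP5 (a steroid receptor co-chaperone) fell with log2 fold changes of -2.48 and -2.09. No gene named in this paragraph had overlapping groups.

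Prostate surface antigens and secretory products did not all move one way. Of 19 tested, 12 fell (63.2%, against 19.3% of all tested genes), 3 rose (15.8%, against 18.2%) and 4 did not pass. FOLH1, which encodes prostate-specific membrane antigen, rose from 730, 711 and 713 CPM to 986, 952 and 981 CPM (log2 fold change 0.44, SE 0.0226, edgeR adjusted p = 1.46e-67). ACPP, prostatic acid phosphatase, rose from 25.3, 29 and 25.6 CPM to 77.7, 79.5 and 82.2 CPM (1.58, SE 0.0488, adjusted p = 3.24e-146). So FOLH1 and ACPP rose while KLK3 fell in the same libraries, and in each the groups did not overlap.

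Androgen-repressed genes moved upward: 8 of 11 tested rose (72.7%, against 18.2% of all tested genes), 6 of them at least 1.5-fold, and 3 did not pass, with a median log2 fold change of 0.72. OPRK1, the kappa opioid receptor, rose from 13.3, 13.8 and 12.1 CPM to 49.9, 47.1 and 51.2 CPM. CAMK2N1, an inhibitor of calcium/calmodulin kinase II, rose from 4.16, 3.7 and 4.13 CPM to 13.2, 12.2 and 12.7 CPM. In both genes the lowest treated sample lay above the highest vehicle sample.

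Steroid receptor coactivators and chaperones did not move as a block. Of 28 tested 8 rose (28.6%) and 9 fell (32.1%), against 18.2% and 19.3% of all tested genes, with a median of -0.003. Limma on FPKM called 6 increased and 5 decreased. The p160 coactivators NCOA3 (0.62) and NCOA2 (0.30) rose, and PIAS1, a SUMO ligase, fell (-0.34). In the glucocorticoid receptor axis, whose targets overlap those of androgens, 9 of 15 tested genes fell and a single gene, the chaperone FKBP4 at 0.13, rose. ZBTB16, a zinc finger repressor of this list, went from 64.3, 64 and 64.8 CPM to 15.9, 17.7 and 17.5 CPM. The glucocorticoid receptor gene itself, NR3C1, had 26 reads over all 6 samples and was not tested.

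**Figure D2:**
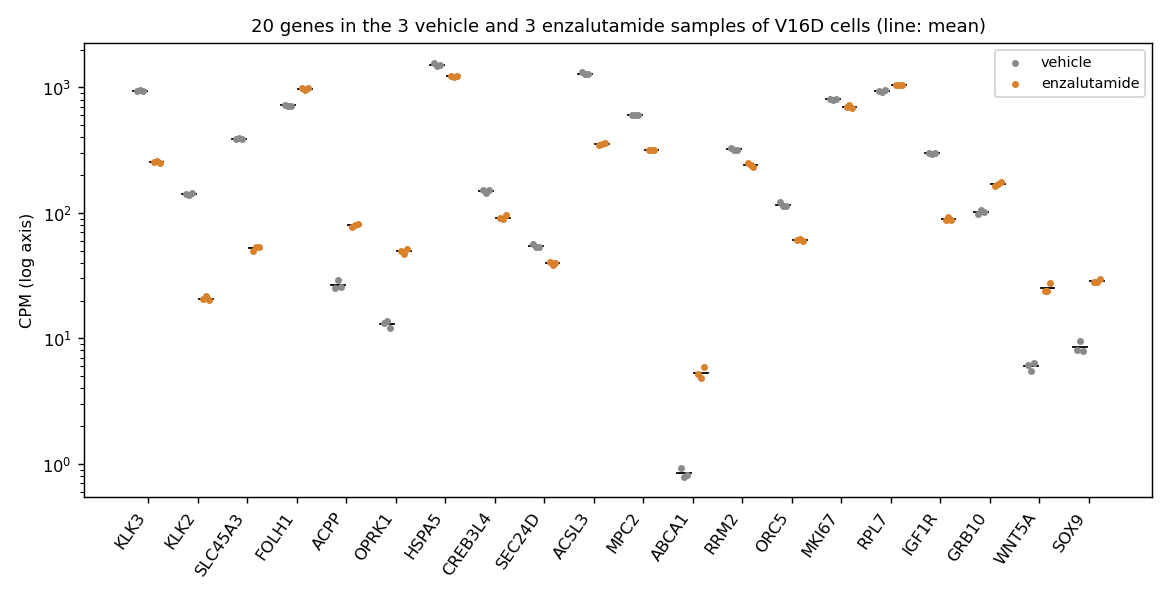
CPM of 20 genes on a log axis in the 3 vehicle (grey) and 3 enzalutamide (orange) samples of V16D cells, with a line at each mean. KLK3, KLK2 and SLC45A3 fall several-fold, HSPA5, RRM2 and MKI67 shift by a small and even step, and ACPP, OPRK1, WNT5A and SOX9 rise, with no overlap between the groups in any of the 20.

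The secretory pathway fell broadly and by small steps. In the endoplasmic reticulum the unfolded protein response adjusts chaperones to the load of secreted proteins through the sensors ERN1 (IRE1), ATF6 and EIF2AK3 (PERK). Of 38 tested genes of folding and this response 33 fell, 3 of them at least 1.5-fold, with a median log2 fold change of -0.26 and a range of -0.70 to 0.05. The 5 that did not pass, named after their values were seen, were ERO1LB, DERL2, WFS1, ERO1L and ATF6. HSPA5 (BiP), the main luminal chaperone, went from 1554, 1488 and 1496 CPM to 1238, 1214 and 1226 CPM (log2 fold change -0.30, SE 0.0218, edgeR adjusted p = 6.04e-38). CREB3L4, a membrane-bound transcription factor of this compartment, fell from 151, 145 and 152 CPM to 91.3, 88.8 and 95.3 CPM (-0.70). ERN1 fell by 0.66 on the log2 scale. XBP1, the factor that ERN1 splices, averaged 127 CPM against 120 CPM. Its groups overlapped, although it passed the threshold at -0.08 (edgeR adjusted p = 0.032), a call that was lost under several other settings, and gene counts do not tell its spliced from its unspliced form.

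Vesicle coats followed with smaller changes. COPII coats carry cargo out of the endoplasmic reticulum and COPI coats return it. Of 39 tested members 25 fell and 14 did not pass, with a median of -0.12 and no member past 1.5-fold. Limma on FPKM called 15 of them decreased. SEC24D, a COPII cargo adaptor, had the largest change, from 56.8, 53.3 and 53.3 CPM to 40.6, 38.3 and 40 CPM (-0.46). TMED9, a p24 cargo receptor, fell by 0.36 on the log2 scale.

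Glycosylation did not move as a block. Among 32 enzymes of hexosamine and sugar nucleotide synthesis 11 fell (34.4%) and 6 rose (18.8%), with a median of -0.06. Among 46 Golgi transferases 15 fell (32.6%) and 12 rose (26.1%), with a median of 0.00. The shares of all tested genes were 19.3% and 18.2%. Single enzymes changed far more than any coat gene. UAP1, which makes UDP-N-acetylglucosamine, fell from 443, 425 and 431 CPM to 176, 172 and 172 CPM (-1.32). ST6GALNAC1, the sialyltransferase that makes the sialyl-Tn antigen, went from 103, 104 and 101 CPM to 4.82, 5.23 and 4.21 CPM (-4.42, SE 0.0664). CSGALNACT1, which starts chondroitin sulfate chains, fell by 1.64 on the log2 scale. ST6GALNAC4 (1.03) and ST3GAL5 (0.99), which makes the ganglioside GM3, rose.

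**Figure D3:**
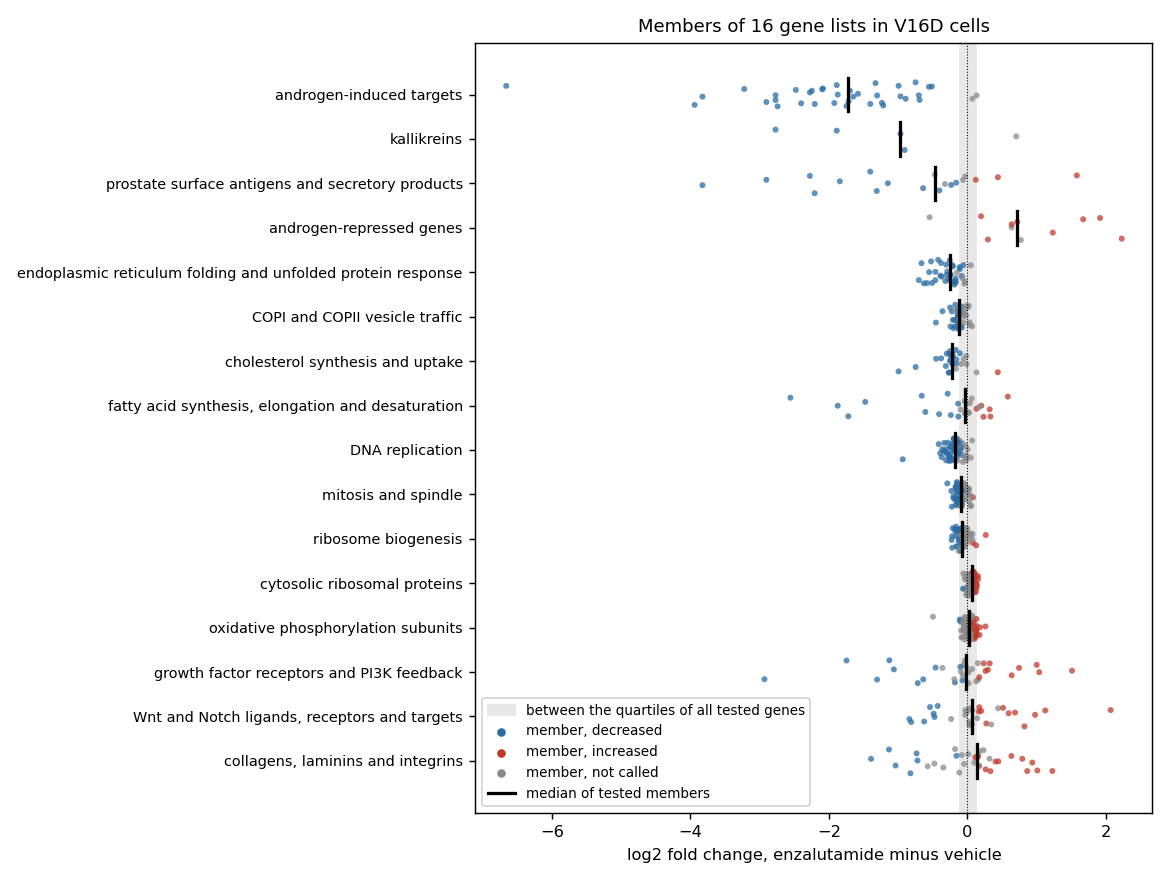
Log2 fold change (enzalutamide minus vehicle) of each tested member of 16 gene lists in V16D cells, blue where decreased, red where increased and grey where not called, with the list's median as a black line and the range between the quartiles of all tested genes shaded. Androgen-induced targets spread from -6.66 to 0.13, whereas endoplasmic reticulum, vesicle and cell cycle genes form narrow clouds just left of 0 and ribosomal protein genes just right of it.

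Lipid metabolism split by branch. Cells make cholesterol from acetyl-CoA in a chain of enzyme steps under the control of SREBF2, and 21 of 28 tested genes of synthesis and uptake fell, with a median of -0.22. FDFT1, squalene synthase, went from 297, 288 and 290 CPM to 205, 219 and 215 CPM (-0.45, SE 0.0268). SREBF2 fell by 0.22, and in FDFT1 the groups did not overlap. TM7SF2, a sterol reductase, was the single member that rose, from 48.1, 60.9 and 57.4 CPM to 72, 81.9 and 72.5 CPM.

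Fatty acid synthesis showed large losses in a few enzymes and rises in others. Of 25 tested 11 fell (44%), 6 of them at least 1.5-fold, and 6 rose (24%). Among all tested genes 19.3% fell and 18.2% rose. ACSL3, which activates fatty acids, went from 1327, 1267 and 1272 CPM to 346, 351 and 359 CPM (-1.87, SE 0.0238). The elongase ELOVL2 fell from 84.5, 82.6 and 81.6 CPM to 13.5, 15.1 and 13.8 CPM (-2.56), and the elongases ELOVL7 and ELOVL5 stood at -1.72 and -1.48. ELOVL6 (0.33) and the desaturase SCD5 (0.32) rose. FASN, the synthase itself, fell by 0.41. SREBF1, the factor known for driving this branch, stood at 412, 431 and 408 CPM against 427, 430 and 425 CPM, with overlapping groups and edgeR adjusted p = 0.263.

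Fatty acid oxidation showed counts close to those of all genes, with 7 of 28 increased and 6 decreased. Sterol exporters rose from low levels. ABCA1 went from 0.924, 0.788 and 0.813 CPM to 5.19, 4.8 and 5.95 CPM (log2 fold change 2.65, SE 0.209), and ABCG1 from 5.02, 5.7 and 4.63 CPM to 10.3, 8.33 and 9.91 CPM (0.90). Within the same transporter list ABCC4, an exporter of nucleotides and drugs, fell from 331, 319 and 323 CPM to 96.5, 95.8 and 104 CPM (-1.72), and ABCC1 fell by 0.99. Of 14 tested genes of steroid synthesis and conjugation 3 fell (21.4%, against 19.3% of all tested genes) and a single gene rose.

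Amino acid supply genes fell more often than they rose. Of 28 transporters 14 fell (50%, against 19.3% of all tested genes) and 4 rose (14.3%, against 18.2%), with a median of -0.16. SLC38A4, a neutral amino acid transporter, went from 7.99, 8.73 and 9.13 CPM to 0.0524, 0.182 and 0.124 CPM. Its 6 reads over the treated samples against 411 give a ratio of 72.2 with an exact 95% counting interval of 32.9 to 198. The peptide transporter SLC15A2 fell by 2.81, whereas SLC38A9, an arginine sensor of the lysosome, rose by 0.76 and SLC7A5, a leucine transporter, rose by 0.41.

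The ATF4 response, which supplies amino acids under stress, had 13 of 26 decreased and 3 increased, with no member past 1.5-fold. The decreased count was 7 with MR49F samples in the same fit and 4 with limma on FPKM, close to its 3 increased. MTHFD2 of the folate cycle fell by 0.22, DDIT3 (CHOP) rose by 0.39, and ATF4 itself stood at -0.08. Among 16 polyamine genes 6 fell (37.5%) and 3 rose (18.8%), the latter near the 18.2% of all tested genes. SAT1, which acetylates polyamines for export, fell from 26.2 to 11.9 CPM on average, spermine synthase SMS fell by 0.50 and ornithine decarboxylase ODC1 by 0.19.

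Central carbon genes moved in both directions. Of 31 genes of glycolysis and glucose transport 12 fell (38.7%) and 7 rose (22.6%). Of 33 genes of the citrate cycle and pyruvate entry 11 fell (33.3%) and 8 rose (24.2%). Among all tested genes 19.3% fell and 18.2% rose, so the rises in both lists were not far from that share. MPC2, a subunit of the mitochondrial pyruvate carrier, went from 599, 606 and 606 CPM to 318, 319 and 318 CPM (-0.92, SE 0.0242). SLC2A12, a glucose transporter, fell by 0.84, and the neuronal enolase ENO2 rose by 0.60. Oxidative phosphorylation subunits were mostly not called: 18 of 76 rose (23.7%) and 2 fell (2.63%), with a median of 0.02. With MR49F samples in the same fit 5 rose and 0 fell (0 fell with the DESeq2 Wald test too). NDUFB4, a subunit of complex I, rose from 290, 299 and 291 CPM to 346, 358 and 350 CPM (0.26).

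Cell cycle genes fell in large numbers but little in size. Of 56 DNA replication genes 44 fell and 12 did not pass, with a median of -0.18. ORC5, a subunit of the origin recognition complex, was the member past 1.5-fold, from 121, 114 and 113 CPM to 60.9, 61.4 and 59.6 CPM (-0.93, SE 0.0378). RRM2, the ribonucleotide reductase subunit that limits the supply of deoxynucleotides, went from 327, 319 and 318 CPM to 248, 241 and 234 CPM (-0.41, SE 0.0261). Of 67 genes of mitosis and the spindle 42 fell, with a median of -0.10 and none past 1.5-fold. The decreased count was 19 with MR49F samples in the same fit and 17 with limma on FPKM. A single one rose, cyclin B1 (CCNB1) at 0.08, named after its value was seen, and 0 rose under either setting or with the DESeq2 Wald test (edgeR had called 1). KIF20A, a kinesin of cytokinesis, had the largest fall, from 166, 153 and 158 CPM to 131, 128 and 131 CPM (-0.29, SE 0.0312).

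MKI67, the Ki-67 proliferation marker, went from 811, 793 and 801 CPM to 695, 719 and 680 CPM (-0.20, edgeR adjusted p = 1.76e-16), and the groups did not overlap. FOXM1, a mitotic transcription factor, passed only narrowly, at -0.07 (adjusted p = 0.0189), and not with the DESeq2 Wald test or limma. In bulk RNA a lower share of cycling cells cannot be told apart from less of these transcripts per cell.

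Genes of G1 control fell in 15 of 31 cases (48.4%, against 19.3% of all tested genes) and rose in 4 (12.9%, against 18.2%). CDK6 fell from 32.3, 31.7 and 33 CPM to 19.1, 15.7 and 19.3 CPM (-0.84), E2F7 by 0.51 and E2F1 by 0.25. The inhibitor CDKN1A (p21) rose from 49.5, 49.8 and 45.8 CPM to 61.3, 57.8 and 57.4 CPM (0.29). CCND1 and MYC did not pass: CCND1 stood at 0.04 (adjusted p = 0.262) and MYC at 0.01 (adjusted p = 0.833), both with overlapping groups. CDKN1B (p27) rose by 0.12. Recombination and mismatch repair genes fell in 19 of 41 cases, and in 9 both with MR49F samples in the same fit and with limma on FPKM. BARD1, the partner of BRCA1, went the other way, from 65.2, 62.9 and 60.1 CPM to 111, 118 and 119 CPM (0.88).

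Genes of ribosome assembly and of the ribosome itself moved apart. Ribosome biogenesis factors fell in 27 of 54 cases and rose in 3, with a median of -0.08. The decreased count was 10 with MR49F samples in the same fit and with limma on FPKM, and 16 with the DESeq2 Wald test. Cytosolic ribosomal protein genes rose in 32 of 58 cases and fell in a single case, with a median of 0.07. RPL7 stood at 936, 918 and 956 CPM and at 1038, 1046 and 1036 CPM with enzalutamide, a log2 fold change of 0.15 (SE 0.0222), the highest of the list to the second decimal. The size of both shifts was within the quartiles of all genes, and with MR49F samples in the same fit the ribosomal protein count dropped to 6. Ribosomal protein genes have many pseudogene copies, which counting could share reads with.

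Promoters of lists that moved together shared short elements to different degrees. HSPA5 (chr9:125241294-125241593, minus strand) and KIF20A (chr5:138178862-138179161, plus strand, both on GRCh38.p14) are shown as members of the folding and mitosis lists. Capitals mark the NF-Y box CCAAT in both, the endoplasmic reticulum stress element core CCACG in HSPA5, and the cell cycle homology region TTTGAA or TTTAAA in KIF20A, on either strand:
HSPA5: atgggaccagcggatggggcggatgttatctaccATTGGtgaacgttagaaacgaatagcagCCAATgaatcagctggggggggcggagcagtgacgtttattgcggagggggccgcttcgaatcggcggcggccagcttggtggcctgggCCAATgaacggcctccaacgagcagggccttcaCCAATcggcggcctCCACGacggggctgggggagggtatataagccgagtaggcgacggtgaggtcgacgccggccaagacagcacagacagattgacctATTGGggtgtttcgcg
KIF20A: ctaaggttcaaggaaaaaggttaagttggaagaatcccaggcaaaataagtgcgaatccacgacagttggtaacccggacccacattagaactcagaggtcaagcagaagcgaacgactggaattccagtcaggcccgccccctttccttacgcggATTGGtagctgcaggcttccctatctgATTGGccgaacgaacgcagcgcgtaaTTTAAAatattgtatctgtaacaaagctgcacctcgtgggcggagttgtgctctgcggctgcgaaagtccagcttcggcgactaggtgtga
In HSPA5 a CCAAT whose first base lies 66 bases before the start is followed by a CCACG at 52 bases. In KIF20A the TTTAAA begins 41 bases before the start, downstream of CCAAT matches on the other strand at 94 and 67 bases.

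The CCAAT letters were present in 25 of 32 promoters of folding genes (78.1%), in 39 of 55 of mitosis genes (70.9%), in 28 of 49 of replication genes (57.1%) and in 36.6% of the promoters of all tested genes. The cell cycle homology region was present in 44 of 55 mitosis promoters (80%), in 4 of 49 replication promoters (8.16%) and in 15.4% of all. CCACG was common, at 49.5% of all, and held by 23 of 32 folding promoters (71.9%), 35 of 49 replication promoters (71.4%) and 30 of 34 vesicle coat promoters (88.2%), so it was not particular to the secretory lists. A match is a description of the sequence and does not show a bound factor.

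**Figure D4:**
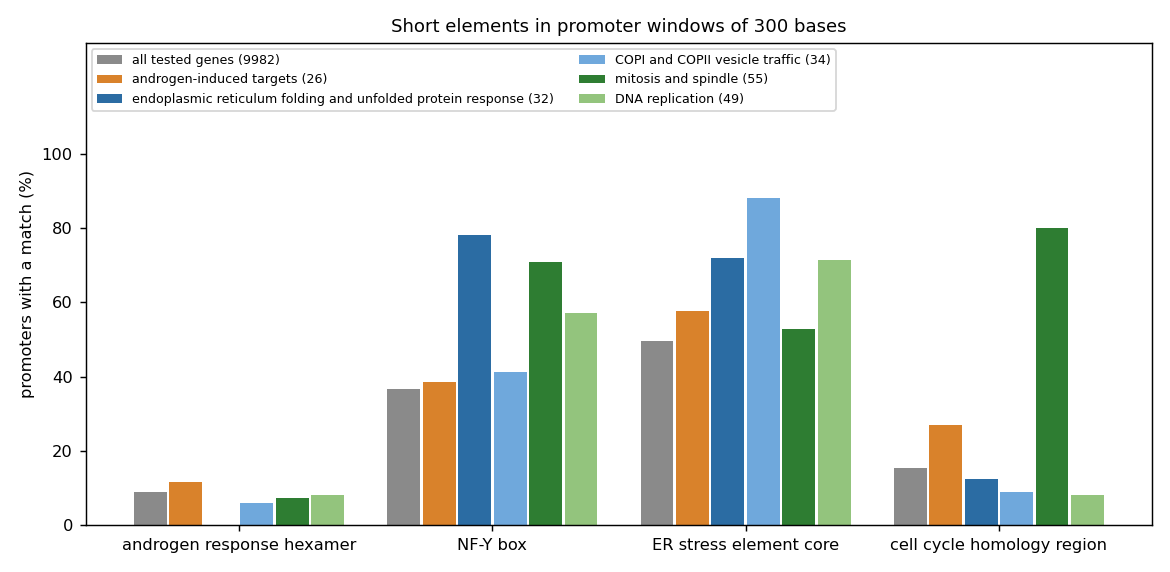
Share of promoter windows with a match to each of 4 short elements on either strand, in percent, for all tested genes (grey) and 5 gene lists, with the number of promoters in brackets. The NF-Y box is most frequent in folding (78.1%) and mitosis genes (70.9%), and the cell cycle homology region stands out in mitosis genes alone among these lists (80%).

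Some growth factor signalling genes changed strongly, in both directions. Of 34 tested 11 fell (32.4%), 7 of them at least 1.5-fold, and 10 rose (29.4%), 5 of them at least 1.5-fold. Among all tested genes 19.3% fell and 18.2% rose. IGF1R, the receptor of insulin-like growth factors, went from 302, 294 and 301 CPM to 87.3, 92.1 and 88.1 CPM (-1.75, SE 0.0304). Its adaptors IRS2 and IRS1 stood at -1.13 and -1.06. INPP4B, a phosphatase that opposes PI3K signalling, fell from 20.6, 18.9 and 20 CPM to 2.67, 2.13 and 2.97 CPM (-2.93). GRB10, an adaptor that restrains insulin and IGF receptors, rose from 98.4, 104 and 102 CPM to 165, 171 and 175 CPM (0.74), and the IGF-binding protein IGFBP3 rose from 30.9 to 61.9 CPM on average (1.00).

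Wnt and Notch genes rose more often than they fell by edgeR, 11 against 7 of 31 (35.5% and 22.6%, against 18.2% and 19.3% of all tested genes). The counts were 8 and 6 with the DESeq2 Wald test and 7 and 6 with limma on FPKM. WNT5A, a noncanonical Wnt ligand, rose from 6.14, 5.46 and 6.38 CPM to 24, 24 and 27.6 CPM (2.07, SE 0.0886), and NOTCH3 from 11.2, 10.7 and 11.7 CPM to 19.8, 22.7 and 23.8 CPM (0.98). The Wnt receptor FZD5 fell by 0.84 and the ligand WNT7B by 0.54. Of 22 neurotransmitter and peptide receptors 8 fell (36.4%) and 5 rose (22.7%), the rises not far from the share of all genes. GRIN3A, a glutamate receptor subunit, fell from 61 to 17.7 CPM on average. Among 20 immediate early genes 6 fell (30%) and 3 rose (15%, below the 18.2% of all tested genes). NR4A1, an orphan nuclear receptor, stood at -0.98 and JUNB at 0.31.

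Lineage factors were mixed too. Of 23 epithelial transcription factors 10 fell (43.5%, against 19.3% of all tested genes) and 7 rose (30.4%, against 18.2%). SOX9, a progenitor factor, rose from 8.05, 9.58 and 7.88 CPM to 27.9, 28.1 and 29.6 CPM (1.74), and ELF3 rose by 0.91. KLF5, a zinc finger factor of epithelial growth, fell from 16.4, 17 and 18.6 CPM to 7.02, 6.44 and 6.2 CPM (-1.40). Of 21 mesenchymal factors and cadherins 10 rose (47.6%) and 4 fell (19%), the latter near the share of all genes. The repressor SNAI2 (Slug), a driver of mesenchymal change, dropped from 20.5, 20 and 21.6 CPM to 1.15, 0.972 and 0.434 CPM (-4.56), while the tight junction protein OCLN rose from 62.5, 63.8 and 59.9 CPM to 112, 118 and 126 CPM (0.93) and the cadherin CDH26 rose from 2.83 to 11.1 CPM on average. So the members that moved were not all mesenchymal genes.

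Matrix genes rose in 13 of 34 cases (38.2%, against 18.2% of all tested genes) and fell in 7 (20.6%, near the 19.3% of all tested genes). COL5A2 (0.94) and ITGB4 (0.86) rose, and the laminin LAMA1 (-1.13) and collagen COL4A6 (-1.39) fell. Of 26 neuroendocrine and neuronal markers listed only 9 had enough reads to be tested. Of these 9, 5 rose (55.6%, against 18.2% of all tested genes), or 3 with the DESeq2 Wald test. DDC, the decarboxylase that makes dopamine and serotonin, rose from 7.06, 6.06 and 7.06 CPM to 15.4, 15.8 and 16.2 CPM (1.23) and is also on the androgen-repressed list, whereas the neuroendocrine markers CHGA, SYP and INSM1 stayed under 1 FPKM.

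Stress and survival genes changed in part. Of 28 p53 targets 7 rose (25%, against 18.2% of all tested genes) and 2 fell (7.14%, against 19.3%). SESN1, a sestrin that restrains mTORC1, rose from 52, 56.4 and 55.2 CPM to 97.6, 99.8 and 105 CPM (0.89), and TP53INP1 from 148, 155 and 153 CPM to 268, 262 and 269 CPM (0.81), while the death receptor TNFRSF10B fell by 0.46. In the BCL2 family 6 of 18 rose (33.3%) and 3 fell (16.7%), with the proapoptotic BMF at 0.69 and the survival protein BCL2L1 (BCL-XL) at -0.37. Autophagy and lysosome genes rose in 13 of 45 cases (28.9%) and fell in 7 (15.6%), none past 1.5-fold, with the cargo receptor SQSTM1 (p62) at 0.27.

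Hypoxia genes were called about as often as all tested genes (18.2% increased, 19.3% decreased), with 4 of 18 (22.2%) in each direction. They ran from NDRG1, an iron- and androgen-responsive gene, at -2.25 to EGLN3, an oxygen-sensing hydroxylase, at 0.86. Circadian genes rose in 5 of 17 cases (29.4%) and fell in 4 (23.5%), PER1 from 47.3, 47.4 and 44.1 CPM to 18.2, 22.4 and 21.3 CPM (-1.17). Of 23 metallothionein and zinc transporter genes 8 fell (34.8%) and 5 rose (21.7%), with SLC30A4, which loads zinc into vesicles, at 0.56. Chromatin corepressors and DNA methylation genes gave 7 increased (22.6%) and 8 decreased (25.8%) of 31, not far from the shares of all genes. The demethylase KDM6A stood at 0.45 and UHRF1, which maintains DNA methylation, at -0.37. Interferon-stimulated genes (4 of 29 up, 13.8%, and 3 down, 10.3%) and MHC class I genes (1 and 1 of 9, 11.1% each) were called less often. Of 19 cytosolic tRNA synthetases 1 rose (5.26%) and 5 fell (26.3%, against 19.3% of all tested genes). The decreased count was 1 with limma on FPKM and 1 with MR49F samples in the same fit. Of 24 NRF2 and heat shock genes 8 rose (33.3%) and 5 fell (20.8%).

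Outside the lists the largest rises included AMIGO2, a neuronal adhesion protein, from 0.726, 1.03 and 1.19 CPM to 8.02, 7.78 and 9.79 CPM (3.10), and LRRN1, a leucine-rich repeat membrane protein, from 35.6, 34.6 and 32 CPM to 129, 135 and 132 CPM (1.95). The largest falls included CCDC141, with 583 reads over the vehicle and 8 over the treated samples. That ratio was 76.8, with an exact 95% counting interval of 38.7 to 179. The alcohol dehydrogenase ADH1C had 376 reads against 6, a ratio of 66.1 (30.1 to 181).

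The response of V16D was then tested against that of MR49F in the same serum. Enzalutamide raised 537 of 13927 genes (3.86%) and lowered 644 (4.62%) in MR49F, and the interaction of line and drug was called for 1006 of 14471 genes (6.95%, edgeR quasi-likelihood test). For androgen-induced targets 32 of 38 interactions were called, all with the log2 fold change lower in V16D. KLK3 stood at -0.09 in MR49F, KLK2 at -0.12 and SLC45A3 at -0.14, and their adjusted interaction p-values were 4.9e-14, 3.86e-17 and 3.86e-17. Endoplasmic reticulum folding genes had 14 of 38 interactions lower in V16D (9 called by the DESeq2 Wald test), cholesterol genes 7 of 28, amino acid transporters 9 of 28 and ATF4 genes 8 of 26. Replication genes had 4 of 56. Of 67 mitosis genes 0 were called by edgeR and 0 by the DESeq2 Wald test, with 11 at an unadjusted edgeR p under 0.05. In MR49F alone 17 of these replication and 14 of these mitosis genes fell. A call that misses the threshold does not show that the lines responded alike, and vehicle replicate 1 of MR49F stood apart from its group.

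Treating MR49F cells with DHT in stripped serum gives the values of an added androgen, in other libraries. There 2134 of 11004 genes rose (19.4%) and 1988 fell (18.1%) by the counts. Only 5.309% to 7.509% of assigned reads lay on genes in those count files, 1221104 to 1643261 reads per sample, and 0.0993% to 0.1387% were ambiguous between genes, against 1.7231% to 1.9896% in the full-serum samples. Genes named as antisense RNAs held 1.22% to 1.79% of the reads on genes, against 0.231% to 0.297% in full serum, whereas their share of summed FPKM was 0.413% to 0.452% against 0.227% to 0.363%. The libraries mark strand, and the setting used to count these files is not given in the sources used here. If it was opposite to that of the full-serum files, a count here holds reads from the strand opposite to the gene, so each DHT count below is given with that of limma on log2(FPKM + 1), which rests on other files. On FPKM 3522 of 12180 genes rose (28.9%) and 5265 fell (43.2%), with a median log2 difference of -0.08 over all genes. Of the 483 genes that fell at least 1.5-fold in V16D, 285 were tested with DHT, and 235 of these (82.5%) rose and 5 fell. On FPKM it was 289 (88.4%) and 18 of 327. Of the 466 that rose at least 1.5-fold, 248 were tested, and 213 (85.9%) fell and 2 rose. On FPKM it was 285 (96.6%) and 6 of 295. Of the genes that fell by less than 1.5-fold, 2085 were tested, and 1048 (50.3%) rose with DHT and 65 fell, or 1518 (70.1%) and 195 of 2165 on FPKM. Both filters keep a gene that reaches the minimum in the samples of a single group. A gene nearly absent with vehicle thus entered only if DHT raised it, and a gene nearly absent with DHT only if it was lowered. This can raise the shares, by an amount that was not tested.

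Set side by side by list, DHT raised by the counts 35 of 37 androgen-induced targets, 27 of 38 folding genes, 27 of 37 vesicle coat genes, 37 of 54 replication genes, 30 of 62 mitosis genes, 38 of 53 ribosome biogenesis genes and 15 of 27 cholesterol genes. On FPKM the same lists had 36 of 38, 34 of 38, 33 of 39, 50 of 56, 61 of 67, 48 of 54 and 21 of 28 increased. Of androgen-repressed genes, DHT lowered all 5 tested by the counts and 7 of 8 on FPKM. Ribosomal protein genes had 2 of 57 increased and 10 decreased, or 0 and 24 of 58 on FPKM. Oxidative phosphorylation genes had 4 and 6 of 75, or 11 and 37 of 76. Among all genes 19.4% rose and 18.1% fell by the counts, and 28.9% and 43.2% on FPKM. The falls of ribosomal protein (41.4%) and oxidative phosphorylation genes (48.7%) on FPKM were near that share. Their rises on FPKM (0% and 14.5%) were below it. Line, serum, depth and possibly counting all differ from those of the V16D samples, so their parts cannot be told apart.

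**Figure D5:**
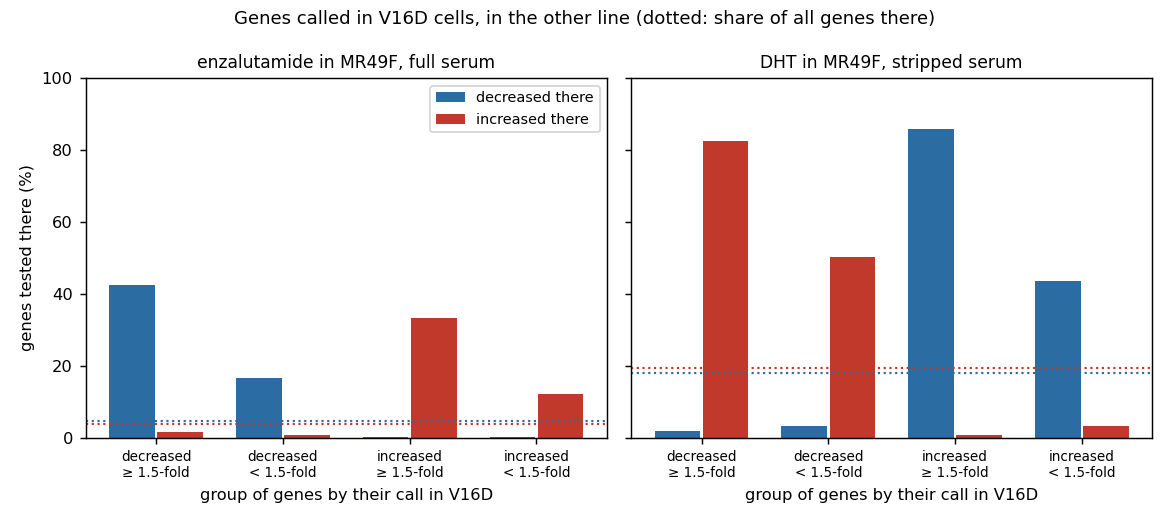
Genes called in V16D cells, split by direction and by a change of at least or under 1.5-fold, as they stood in MR49F cells with enzalutamide in full serum (left) and with DHT in stripped serum (right), both from the counts. Bars give the percent of the genes tested there that fell (blue) or rose (red), and dotted lines the share among all genes there. Of genes that fell at least 1.5-fold in V16D and were tested there, 42.6% also fell in MR49F and 82.5% rose with DHT.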

How the data were processed

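RNA-seq of 30 samples was taken as deposited. RNA was extracted in Trizol and made into strand-marked libraries. The authors aligned reads to hg19 (GRCh37) with TopHat2 2.0.9. Whole-number counts of reads for each RefSeq symbol, without normalization, were deposited by the authors from HTSeq, with the strand setting not given in the sources used here, so overlapping genes are uncertain. FPKM of each transcript were deposited by the authors from Cufflinks 2.1.1. They were added up by gene here and used for marker levels and alternatives. Groups came from the sample labels.

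Counts were tested with edgeR 4.0.16 in R 4.3.3 (glmQLFit and glmQLFTest, TMM, filterByExpr at its minimum of 10 counts and total of 15), on the 6 V16D samples, the 12 full-serum samples for the interaction, or the 6 stripped-serum samples with vehicle or DHT. Benjamini-Hochberg adjusted p-values ran over all genes tested, with values under 1e-300 set to that floor. CPM are counts scaled to the TMM library size with edgeR's cpm function. Unless another quantity is named, a signed number beside a gene is its log2 fold change, enzalutamide minus vehicle, from edgeR, and medians of lists are over tested members. No set test was run.

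Members and gene lists were chosen with earlier results of these data known. Named genes are a fixed set of 22 (given where a result turns on them), in each list up to 2 increased and 2 decreased members with the largest called change, no overlap of groups and at least 5 CPM in the higher group, and outside the lists 10 in each direction. Some are left out, and some genes are not reported here. FDFT1, KLK4, KLK14, KLK15, ELOVL5, ELOVL7, IRS1 and IRS2 were added after their values were seen. Promoter windows are from RefSeq on GRCh38.p14, which was not converted to the files' build, and 26 of 38, 32 of 38, 34 of 39, 55 of 67 and 49 of 56 members of the 5 lists searched had an entry. Gene positions are GENCODE release 44 on GRCh37, matched by symbol, not the authors' annotation.

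V16D replicates differed from each other by a chi-square of 1.253 to 1.691 per degree of freedom, more than sampling noise. In simulated data for this comparison the test recovered 113 of 200 genes changed 1.2-fold, 172 of 200 changed 1.5-fold and 196 of 200 changed 2-fold, and called 4, 9 and 14 unchanged genes. The simulation gave every gene the common dispersion and changed only these 200 genes, whereas 5276 were called in the V16D samples. Its rates of recovery and of false calls may therefore differ from those of the real comparison. Alternatives were other filters, DESeq2 1.42.0 size factors and Wald test, a replicate block, all full-serum samples in the fit, limma 3.58.1 on log-transformed FPKM with 1 or 0.1 added (genes reaching 1 FPKM in 3 or more samples), a test of both groups assuming equal variance on the same values without the 50% of genes of lowest variance, and each replicate left out. Limma on FPKM for DHT was added after the data were seen. Figures were drawn with Python 3.11.15.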

Additional observations from a re-analysis of the deposited data

Results flagged for a closer look

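Among the fixed genes reported here, 6 had a response to enzalutamide that differed between V16D and MR49F cells by the interaction test of edgeR, which called 1006 genes in all. The difference of the log2 fold changes, V16D minus MR49F, was -1.79 for KLK3, -2.28 for TMPRSS2 and -1.46 for IGF1R, which had fallen in V16D and stood at -0.09, -0.19 and -0.28 in MR49F. For FKBP5 it was -0.84, with a log2 fold change of -1.24 in MR49F. Differences were smaller for XBP1 (-0.28, adjusted p = 0.0476 by edgeR) and for CDKN1A, the single gene of these with a higher value in V16D (0.4, adjusted p = 0.000257). XBP1 stood at -0.08 in V16D and 0.2 in MR49F, and CDKN1A at 0.29 and -0.11.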

How the results depend on the processing

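The 5276 genes changed in V16D became 5271 with DESeq2 size factors in edgeR and 3065 with an equal-variance test of log2(FPKM + 1). The FPKM settings differ in test, scaling and filter together, and their median log2 fold change over all genes was 0.028 to 0.052 against 0.0038. Increased genes, 2565 at first, were 1654 with the DESeq2 Wald test. Decreased genes went from 2711 to 1299 with the equal-variance test, 1586 with limma on log2(FPKM + 0.1) and 1581 with limma on log2(FPKM + 1). Increased genes stood at 1766, 2214 and 2218 there, so that rises outnumbered falls. Genes changed at least 1.5-fold went from 949 to 369, 552 and 362 under these 3 settings, on a scale that shrinks low genes. Leaving out each replicate gave 4577 to 4829 genes in all for V16D and 742 to 1579 for the interaction, with 1523 without MR49F vehicle replicate 1 and 1579 without its replicate 3. The DHT count of 4122 became 8787 with limma on log2(FPKM + 1). No other cause of these shifts was tested. MYC ranged from -0.007 to 0.029 when a replicate was left out and never passed. Replicate numbers did not pair the V16D samples (correlations of same-numbered deviations -0.00808, -0.0137 and -0.0308), and the replicate block gave 5137 genes and changed no call of a named gene. Several list counts moved by over 1.5 times, some of them given beside the list above. With limma on log2(FPKM + 1), decreased genes went from 15 to 8 for G1 control, 12 to 7 for glycolysis, 11 to 7 for the citrate cycle, 11 to 7 for growth factor signalling, 6 to 3 for fatty acid oxidation, 8 to 5 for neurotransmitter receptors and 7 to 4 for matrix genes, and increased genes from 13 to 7 for matrix and 11 to 7 for Wnt and Notch genes. With all 12 full-serum samples in the fit, increased genes went from 13 to 7 for autophagy, 8 to 2 for the citrate cycle, 7 to 4 for glycolysis and 8 to 4 for NRF2 and heat shock genes, decreased genes from 8 to 4 for metallothioneins and zinc transporters and 5 to 1 for tRNA synthetases, and ribosomal proteins had 6 increased in place of 32. The DESeq2 Wald test gave 3 increased neuroendocrine markers in place of 5. Other small counts moved as well. The calls of FOXM1, XBP1, ATF4 and CDKN1B were each lost under at least 1 alternative. Folding genes stayed at 27 or more decreased in these settings, and cholesterol genes at 20 or more. The DHT counts are limited by the few reads on genes and by a counting strand that is not given.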

Other observations

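Gene families named by a shared symbol stem were counted as a description, chosen after the values were seen and with no test. Stems share members with the lists above, such as E2F7 and SEC24D. Among all tested genes 19.3% fell and 18.2% rose. Of 261 stems with at least 8 tested genes, RRP, whose members process ribosomal RNA, had the highest share of fallen genes, 8 of 9 (88.9%). MCM genes, which include the replicative helicase, fell in 7 of 11 cases (63.6%), E2F factors in 5 of 8 (62.5%) and NOP nucleolar proteins in 5 of 8. TIMM genes, which import proteins into mitochondria, fell in 7 of 13 cases, nuclear pore genes (NUP) in 11 of 21 and SEC genes of secretion in 14 of 28. Zinc importers of the SLC39A family fell in 6 of 10 cases.

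Rises were most frequent in SAMD genes, 8 of 12 (66.7%, against 18.2% of all tested genes). They were followed at 5 of 8 each by STXBP genes, which bind the syntaxins of vesicle fusion, and NBPF genes. The latter are close copies of each other, among which counting could split reads. Synaptotagmins (SYT) rose in 6 of 10 cases and ABCA transporters in 6 of 11. HOXA genes rose in 4 of 8 cases, with a median log2 fold change of 0.51. The 486 ZNF genes tested stood below both background shares, with 62 increased (12.8%) and 45 decreased (9.26%).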
